A study of Sus scrofa with 6 samples.

Results

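The genes described here are 43 markers of T cells, natural killer (NK) cells, macrophages and mast cells, followed across gut RNA from piglets. They were taken by name as 23 T and NK cell markers, 14 macrophage markers and 6 mast cell markers, and matched to the pig Ensembl identifiers of the deposited table through a table of gene names. Of the 43, 39 had an identifier, and these gave 40 of the table's 21911 rows, because GZMA had 2 identifiers. CD3G, ZAP70, GZMB and CPA3 were not matched and were not analysed here. A row was tested where its mean over all libraries was at least 1 FPKM (reads scaled by gene length and by the library total), which held for 32 of the 40 rows: 17 of 21 for T and NK cells, 12 of 14 for macrophages and 3 of 5 for mast cells. Of the 32, MS4A2 alone passed with the mean of a group under 1 (SMP).

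T cells recognise antigen through a receptor whose signal is started by the kinase LCK and carried by the CD3 chains. Many T cells carry CD4 or CD8 as a coreceptor. The gut wall is rich in T cells, many of them lying between epithelial cells and armed with granzymes and perforin, the killing proteins that they share with NK cells. Macrophages of the lamina propria clear debris and microbes and make the C1q subunits of complement, and mast cells carry the high-affinity receptor for IgE and store histamine and proteases.

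The 6 libraries came from gut tissue of Sus scrofa, 3 from a group labelled Control and 3 from a group labelled SMP, all from total RNA. Per the design text, the piglets of the treated group drank a metasilicate-based alkaline mineral water. The labels give no gut segment, age, sex or strain, do not expand SMP, and do not say that each sample came from its own piglet, so p-values measure the spread between these samples. No sort of cells is named, so the RNA was read as that of whole tissue.

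Library totals recovered from the FPKM values were 15927028 to 20712701 reads or read pairs. The tissue label was met by epithelial markers, with EPCAM, an epithelial adhesion molecule, at 220.3, 157 and 236 FPKM in Control replicates 1 to 3 against 222, 225 and 201 in SMP. Over the 11471 genes tested with limma, 401 were higher and 241 lower in SMP at an adjusted p under 0.05 (62.5% of the calls higher), and with median-ratio scaling 297 and 422 (41.3% higher). Control replicate 2 and SMP replicate 3 lay apart from their groups on the second principal component (-38.6 and 28.9, 24.7% of the variance), so results are also given without both. The Y-linked gene EIF1AY had 5, 0 and 1 reads in the Control libraries and 889, 1028 and 673 in the SMP libraries, and KDM5D had 0 reads in every Control library and 40 to 149 in SMP. Sex and treatment cannot be told apart in these samples.

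No marker passed the test between the groups, in either direction (limma, smallest adjusted p = 0.0615, for AIF1), although 31 of the 32 tested rows had a lower mean in SMP. Over all genes tested, 5.6% were called in either direction, 3.5% higher and 2.1% lower, and 41.1% had a difference below 0. Differences are SMP minus Control, on a log2 scale after adding 1 to the FPKM, a scale that understates changes of low genes. Their median was -0.32 for T and NK markers, -0.73 for macrophage markers and -0.34 for mast cell markers, beside 0.09 for all genes tested. Single libraries moved these medians: that of T and NK markers was -0.08 without Control replicate 1 and -0.57 without Control replicate 2, and that of macrophage markers was -0.48 without Control replicate 1. That of mast cell markers was -0.15 without SMP replicate 1 and -0.51 without Control replicate 3. Median-ratio scaling moved the median of all genes by -0.10, and relative to it the marker medians were -0.41, -0.82 and -0.43 with the values as deposited and -0.42, -0.83 and -0.38 after that scaling. At an unadjusted p under 0.05, 10 of the 32 were lower and 0 higher, beside 9.29% and 16.5% of all genes. The 10 were CD4 and CD8B, FCER1A, and 7 macrophage markers (AIF1, TYROBP, CD68, C1QA, C1QC, SPI1 and CD86). With voom on the recovered reads the count of markers called was also 0 (smallest adjusted p = 0.0638), beside 2.35% of all genes called lower and 4.05% higher. In whole tissue, fewer cells of a type and less RNA per cell cannot be told apart.

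**Figure D1:**
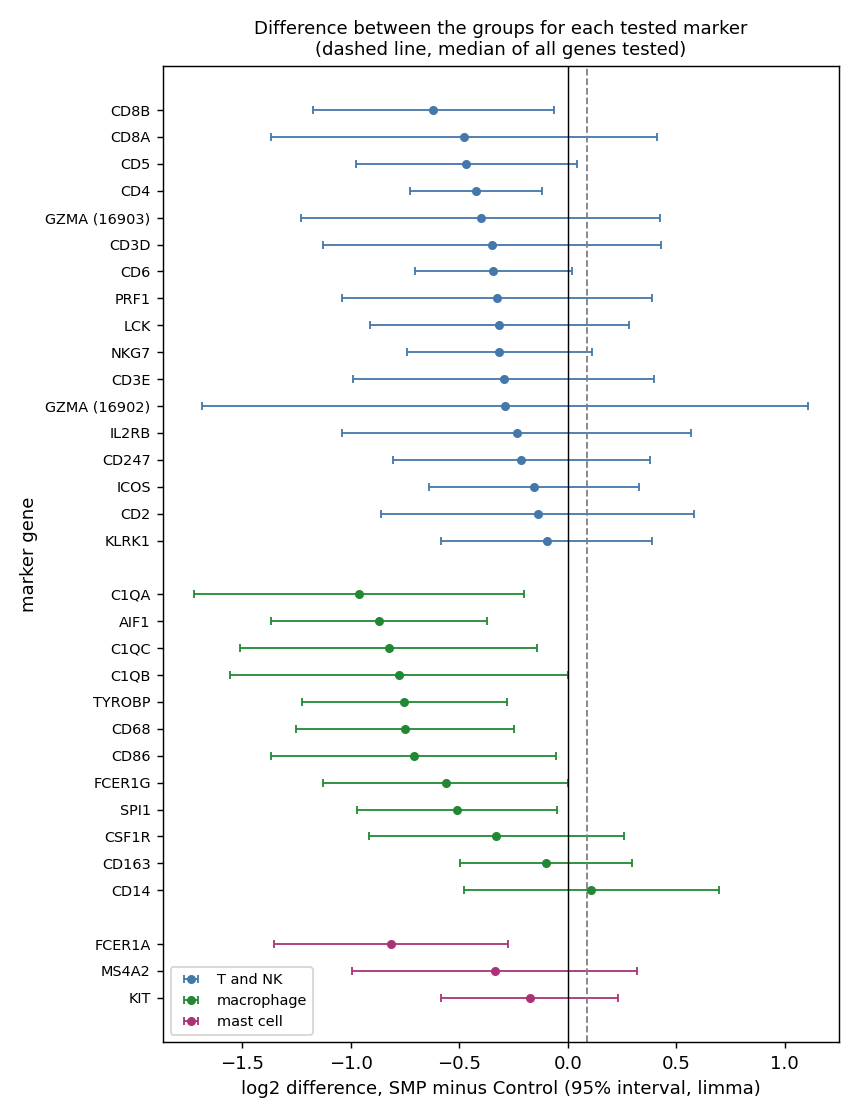
Log2 difference between SMP and Control for each tested marker (x axis, SMP minus Control in log2 units of FPKM + 1; points, limma estimates; bars, 95% intervals not adjusted for multiple tests), ordered within T and NK cells, macrophages and mast cells. All points but that of CD14 lie below 0, the intervals of most T and NK markers cross 0, and the dashed line marks the median of all genes tested, 0.09.

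Single libraries decided how many markers were called. Without Control replicate 2, 9 markers passed as lower, where 4.6% of all genes were called lower and 4.66% higher. Without Control replicate 2 and SMP replicate 3 together 13 did, in a comparison in which 10.8% of all genes were called lower and 15.8% higher. The 9 were CD3E, CD8A, CD8B, CD68, AIF1, CD86, C1QA, C1QB and C1QC (adjusted p from 0.0368 to 0.0471). The 13 were these with CD3D, LCK and both GZMA identifiers (adjusted p from 0.0148 to 0.0411). Median-ratio scaling called 3, AIF1, CD68 and TYROBP (adjusted p = 0.0331, 0.0476 and 0.0381), beside 3.69% of all genes lower and 2.6% higher. No marker was called higher under any of the alternatives run, and leaving out any other library gave no call.

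The receptor complex of T cells was represented by CD3D, CD3E and CD247, the delta, epsilon and zeta chains that carry its signal into the cell. CD3E (ENSSSCG00000040140) was at 20.4, 8.6 and 17.1 FPKM in Control replicates 1 to 3 against 11, 12 and 11.9 in SMP replicates 1 to 3. The SMP libraries lay close together, between a low Control replicate 2 and the other Control libraries, so the groups overlapped (log2 difference -0.29, SE 0.29, adjusted p = 0.566). CD3D was at 17.8, 7.14 and 13.1 in Control against 7.28, 8.52 and 12.2 in SMP, and CD247 at 19.6, 9.33 and 14.4 against 11.1, 12.5 and 11.9. For all 3 chains Control replicate 1 was the highest library and Control replicate 2 the lowest, and the adjusted p-values were 0.544 for CD3D and 0.634 for CD247. In the RefSeq annotation of Sscrofa11.1, CD3D and CD3E are neighbouring protein-coding genes.

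Of the coreceptors, CD4, which marks helper and regulatory T cells, was at 2.48, 2.07 and 2.16 in Control against 1.4, 1.38 and 1.44 in SMP. It had the smallest adjusted p of the T and NK markers, and every SMP library was below every Control library (log2 difference -0.42, 95% interval -0.73 to -0.12, adjusted p = 0.0985). CD8A, the alpha chain of the coreceptor of cytotoxic T cells, which NK cells of the pig also carry, was at 11.7, 3.4 and 8.64 against 4.96, 5.62 and 4.05. Its Control libraries spanned the whole SMP range, with Control replicate 2 the lowest of all (-0.48, SE 0.38, adjusted p = 0.472). CD8B, the beta chain, which together with CD8A marks conventional cytotoxic T cells, was at 5.07, 2.4 and 4.12 against 1.72, 2.49 and 2.08, and SMP replicate 2 just passed Control replicate 2 (-0.62, SE 0.23, adjusted p = 0.158). CD8A and CD8B are also neighbours in that annotation.

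The surface proteins CD2, CD5 and CD6 and the kinase LCK were all highest in Control replicate 1. LCK, which starts signalling from the receptor, was at 18.1, 8.99 and 14.3 in Control against 8.95, 10.8 and 11.9 in SMP (adjusted p = 0.479), and CD2, an adhesion receptor of T and NK cells, at 13.7, 5.22 and 8.67 against 6.55, 8.16 and 8.59 (adjusted p = 0.81). In both genes SMP replicate 3 was the highest of its group and overlapped the Control range. CD5 and CD6, receptors that dampen T cell signalling and neighbours in the annotation, differed from these in having SMP replicate 3 as the lowest of all libraries. CD5 was at 11.4, 6.53 and 8.14 against 6.26, 6.64 and 4.81 (log2 difference -0.47, adjusted p = 0.227). CD6 was at 5.76, 4.25 and 4.5 against 3.75, 3.9 and 3.12, with no overlap between the groups (-0.34, adjusted p = 0.217). SH2D1A, an adaptor of receptors of the SLAM family, had a mean under 1 FPKM and was not tested (1.53, 0.552 and 1.03 in Control against 0.514, 1.12 and 0.712 in SMP).

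Genes of costimulation and regulation were read at low levels. ICOS, a costimulatory receptor of activated T cells, was at 2.43, 1.1 and 1.51 in Control against 1.26, 1.29 and 1.54 in SMP (adjusted p = 0.678), with all SMP values inside the Control range. CD28, the main costimulatory receptor, was at 0.0505 to 0.328 FPKM in the 6 libraries, on 4 to 30 reads, and was not tested. CTLA4, its inhibitory counterpart and neighbour, had 11, 3 and 11 reads in Control against 4, 5 and 4 in SMP, and its FPKM were 1.1, 0.295 and 0.935 against 0.307, 0.383 and 0.377. Control replicate 2 was here the lowest library, at the 3 reads taken as the floor of detection, and the other Control libraries were above every SMP library. FOXP3, the transcription factor of regulatory T cells, had 7, 5 and 0 reads in Control against 6, 7 and 28 in SMP, so that SMP replicate 3 held most of its reads. The 0 reads in Control replicate 3 allow a FOXP3 level of up to 0.0477 FPKM. In a fit with no filter on low values, CTLA4 had a log2 difference of -0.36 (adjusted p = 0.400) and FOXP3 of 0.18 (adjusted p = 0.584).

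Genes of cytotoxic cells spread widely within Control, their mean log2 level having an SD of 0.62 over its 3 libraries and 0.18 over those of SMP. The receptor complex (0.57 and 0.14) and the C1q genes (0.58 and 0.29) had a similar spread in Control. The whole macrophage set had less (0.29 and 0.18). GZMA, a granzyme of cytotoxic T and NK cells, had 2 identifiers that are neighbours in the annotation, and reads may be split between the copies. ENSSSCG00000016902 was at 162, 31.8 and 123 FPKM in Control against 53, 66.9 and 98 in SMP, and ENSSSCG00000016903 at 102, 37.6 and 76.1 against 43.7, 54.8 and 52.3. In both rows Control replicate 1 was the highest library and Control replicate 2 the lowest, and the SMP libraries lay between (adjusted p = 0.792 and 0.514). The 95% interval of the first, -1.69 to 1.11 on the log2 scale, was the widest of all tested markers. PRF1, which encodes perforin, was at 3.98, 1.21 and 2.32 against 1.24, 2.11 and 1.66 (adjusted p = 0.539), and IL2RB, a receptor chain for interleukin 2 and interleukin 15, at 10.9, 3.82 and 6.46 against 4.34, 4.96 and 7.25 (adjusted p = 0.703). KLRK1, the activating receptor NKG2D, was at 2.48, 1.33 and 2.68 against 1.67, 2.15 and 1.9, its highest library being Control replicate 3 (adjusted p = 0.8). NKG7, a protein of cytotoxic granules, spread less, at 40.9, 27.8 and 32.6 against 26.8, 29.6 and 23.8 (-0.31, SE 0.18, adjusted p = 0.328).

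**Figure D2:**
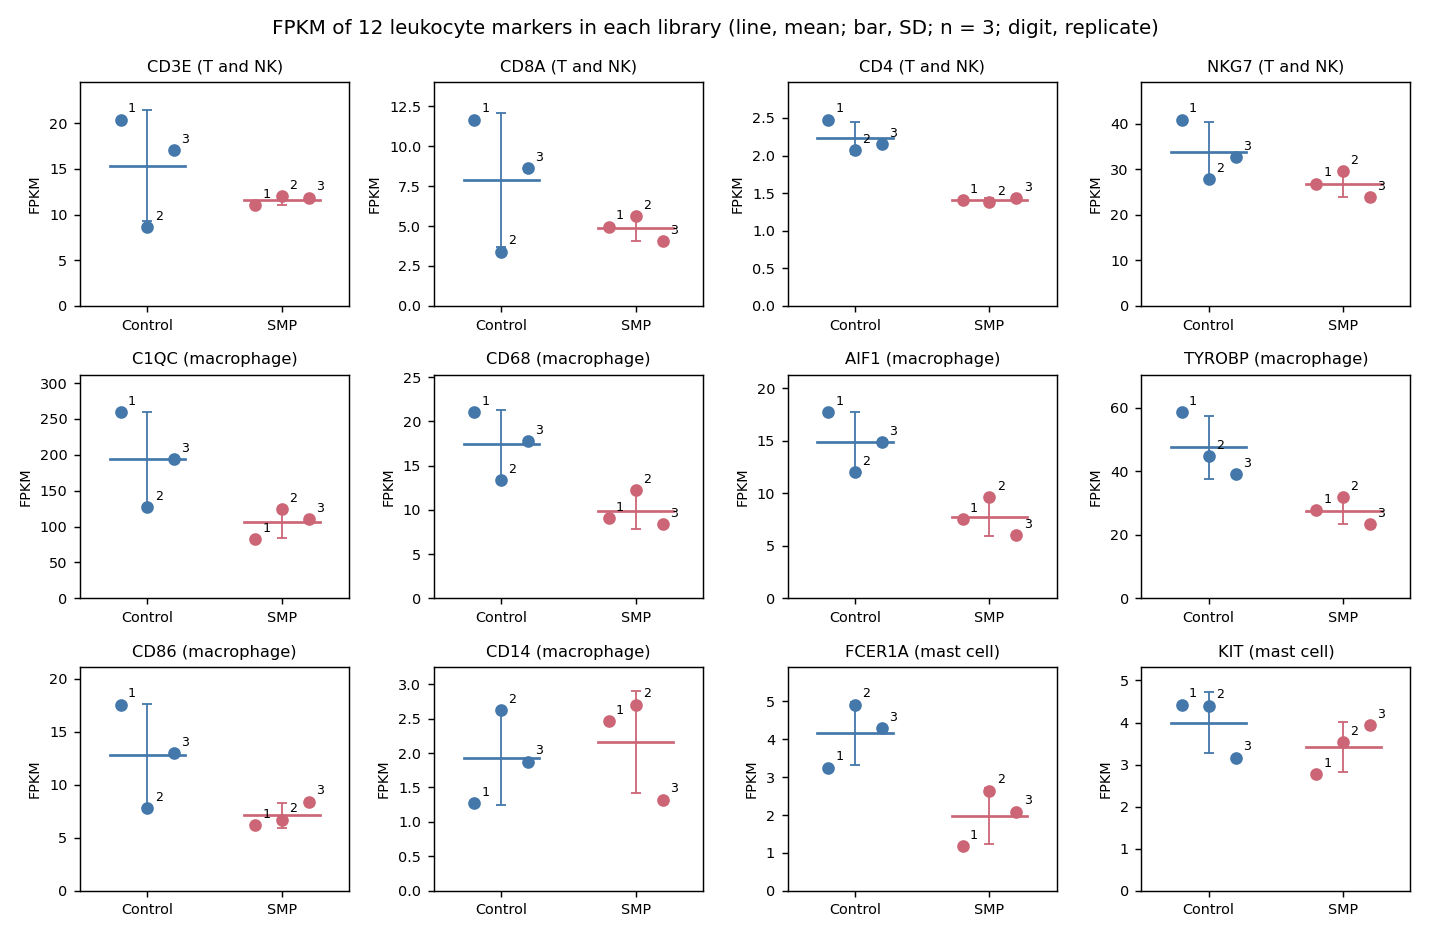
FPKM (y axes, linear from 0) of 12 markers in the 3 Control and 3 SMP libraries; each point is a library with its replicate number, lines are group means and bars the SD (n = 3). CD3E and CD8A in Control replicate 2 lie below every SMP library, whereas for CD4, C1QC, CD68, AIF1, TYROBP and FCER1A all SMP points lie below all Control points. The 12 were picked for display, and of all 32 tested markers 9 were separated in this way, beside 11.5% of all genes tested.

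In the T and NK set as a whole, Control replicate 2 stood apart. It was below both other Control libraries in 17 of the 17 tested rows, which held for 46.5% of all genes tested, and it was the lowest of the 6 libraries in 11 of the 17, beside 28.8% of all genes. Control replicate 1 was the highest library in 16 of the 17, beside 18.6% of all genes, and the exception was KLRK1. Relative to the mean of Control replicates 1 and 3, the FPKM of Control replicate 2 were 0.223 to 0.893 times, with a median of 0.515. It was also below the SMP mean in 12 of the 17 T and NK rows. Much of this was shared by the 18 tested general leukocyte genes described below. Among them Control replicate 2 was below both other Control libraries in 16 and below the SMP mean in 11. It was the lowest of the 6 libraries in 2 of the 18, and Control replicate 1 was the highest in 17. In 2 of the 17, CD4 and CD6, every SMP library was below every Control library, beside 11.5% of all genes, a share near the background.

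Other markers moved with that library. Smooth muscle markers had a summed level of 177 to 2894 FPKM in Control, with Control replicate 3 the lowest and Control replicate 2 the highest, and 1660 to 2264 in SMP. All 10 had a log2 difference above 0, that of ACTA2 being 0.03, and 0 passed the test. ACTG2, the actin of enteric smooth muscle, was at 238, 425 and 10.3 in Control against 383, 527 and 596 in SMP, and ACTA2 at 62.6, 94.6 and 48.7 against 62.2, 79.3 and 62. Fibroblast markers summed to 180 to 735 in Control and 473 to 839 in SMP (0 of 7 passed), and endothelial markers to 31.3 to 66.6 and 32.9 to 45.6 (0 of 7). The summed epithelial markers were at 2979 to 3713 in Control, lowest in Control replicate 2, and 3302 to 3580 in SMP (0 of 9 passed). The part of these tissues in the marker levels was not tested.

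Among macrophage markers the subunits of C1q, the first component of the classical complement pathway, had the highest FPKM. C1QC was at 259.5, 127 and 194 FPKM in Control against 82.8, 124 and 111 in SMP, C1QA at 149.5, 63.1 and 92 against 39.95, 59.3 and 48.3, and C1QB at 93.9, 39.1 and 69.5 against 28.9, 43 and 39.4. In C1QA and C1QC every SMP library was below every Control library, by a narrow margin at Control replicate 2, and in C1QB SMP replicates 2 and 3 were above it. The Control means were 2.07, 1.82 and 1.83 times the SMP means for C1QA, C1QB and C1QC. Their log2 differences were -0.96 (SE 0.32), -0.78 (SE 0.33) and -0.83 (SE 0.29), with adjusted p = 0.121, 0.194 and 0.133. The 3 genes lie side by side in the annotation with no other protein-coding gene between neighbours, and the ratio of C1QB to C1QC was 0.362, 0.307 and 0.358 in Control against 0.349, 0.346 and 0.357 in SMP. The ratio of C1QA to C1QC spread more, at 0.576, 0.496 and 0.474 against 0.483, 0.477 and 0.437, and in both ratios the groups overlapped.

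Of the 4 myeloid adaptors and regulators, 3 had every SMP library below every Control library, which held for 11.5% of all genes tested. AIF1 (ENSSSCG00000032341), a calcium-binding protein of macrophages also called IBA1, was at 17.7, 12 and 14.9 FPKM in Control replicates 1 to 3 against 7.53, 9.64 and 6 in SMP replicates 1 to 3. No SMP library reached the lowest Control library (log2 difference -0.87, SE 0.21, 95% interval -1.37 to -0.37, adjusted p = 0.0615). TYROBP, the signalling adaptor DAP12 of macrophage and NK cell receptors, was at 58.6, 44.7 and 39.1 against 27.7, 31.8 and 23.3, again without overlap (-0.75, SE 0.20, adjusted p = 0.0748). SPI1, the transcription factor PU.1 that drives myeloid development, was at 28.7, 19.3 and 20.5 against 15.2, 18 and 13.6, without overlap (-0.51, SE 0.19, adjusted p = 0.158). FCER1G, the gamma chain shared by Fc receptors of macrophages and mast cells, was at 20.8, 14.2 and 17.4 against 12.7, 14.3 and 8.06, and Control replicate 2 and SMP replicate 2 were nearly equal (adjusted p = 0.195).

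The myeloid receptors separated the groups to different degrees. CD68, a lysosomal glycoprotein of macrophages, was at 21.1, 13.4 and 17.8 in Control against 9.11, 12.2 and 8.39 in SMP, without overlap (-0.75, SE 0.21, adjusted p = 0.0845). CD86, a ligand of CD28 and CTLA4 on antigen-presenting cells, was at 17.6, 7.83 and 13 against 6.2, 6.72 and 8.4, and SMP replicate 3 was above Control replicate 2 (-0.71, SE 0.28, adjusted p = 0.166). CSF1R, the growth factor receptor on which macrophages depend, overlapped widely, at 15.3, 10.8 and 9.91 against 6.47, 10.1 and 11.7 (-0.33, adjusted p = 0.453). CD163, the scavenger receptor for haemoglobin, was at 1.5, 1.49 and 0.871 against 1.02, 1.23 and 1.1 (adjusted p = 0.746). CD14, the coreceptor for lipopolysaccharide, was the tested marker with a higher mean in SMP, at 1.28, 2.63 and 1.88 against 2.47, 2.7 and 1.32, with Control replicate 1 and SMP replicate 3 low and the rest above (0.11, SE 0.25, adjusted p = 0.815). MRC1, the mannose receptor, and ITGAM, an integrin chain of myeloid cells, had means under 1 FPKM. They were at 0.799, 1.05 and 0.394 against 0.979, 1.25 and 0.952 for MRC1 and 0.804, 0.507 and 0.674 against 0.636, 0.668 and 0.762 for ITGAM, with log2 differences of 0.25 and 0.03 in the fit with no filter (adjusted p = 0.537 and 0.910).

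Over the 12 tested macrophage rows, every SMP library was below every Control library in 6 (CD68, AIF1, C1QA, C1QC, TYROBP and SPI1), where 11.5% of all genes tested showed this. Control replicate 1 was the highest library in 11 of the 12, and CD14 was the exception. Control replicate 2 was below both other Control libraries in 8 of the 12, with 0.478 to 1.66 times their mean and a median of 0.741. It was above the SMP mean in 12 of the 12 macrophage rows and in 5 of the 17 T and NK rows, beside 40.6% of all genes, and this contrast between the sets was not tested.

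**Figure D3:**
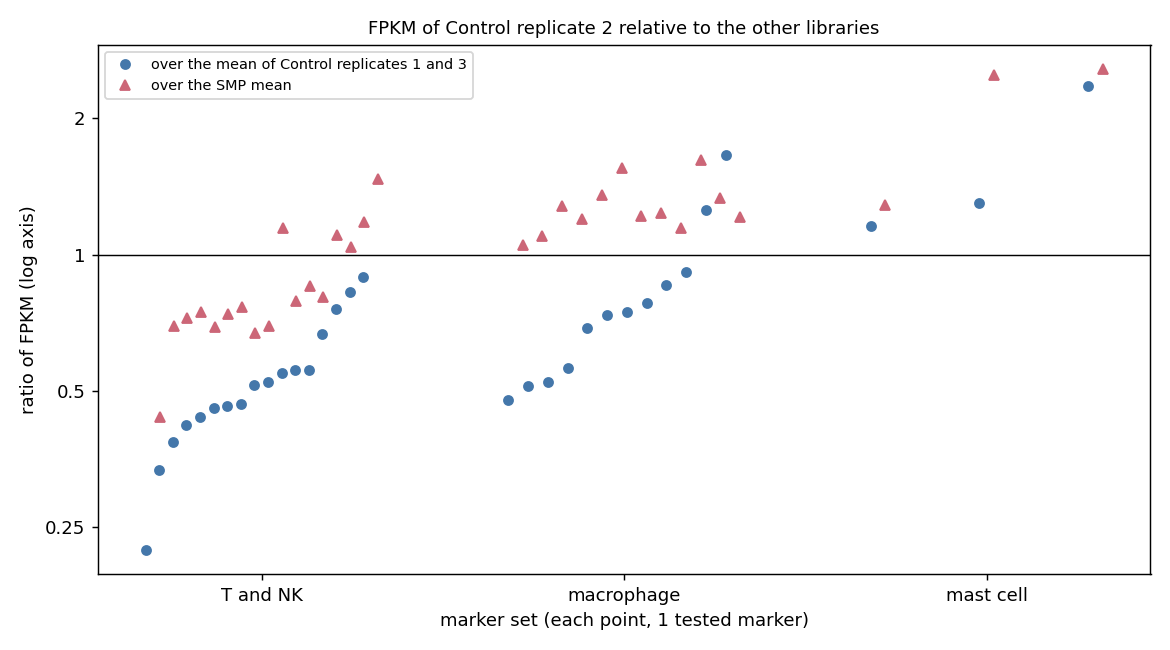
FPKM of Control replicate 2 in each tested marker, divided by the mean of Control replicates 1 and 3 (circles) or by the SMP mean (triangles), on a log axis with a line at 1. All T and NK circles lie below 1 and 12 of their 17 triangles do, while all 12 macrophage triangles and all 3 mast cell triangles and circles lie above 1.

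Mast cell markers were read at low levels and ordered the libraries differently. FCER1A, the IgE-binding alpha chain of the high-affinity receptor, was at 3.25, 4.92 and 4.3 FPKM in Control against 1.19, 2.64 and 2.09 in SMP, on 53, 81 and 82 and 25, 56 and 36 reads. All SMP libraries were below all Control libraries, and Control replicate 2 was the highest (-0.81, SE 0.23, 95% interval -1.35 to -0.27, adjusted p = 0.0836). MS4A2, the beta chain of the same receptor, was at 1.159, 2.41 and 0.878 against 0.46, 1.06 and 1.29, also highest in Control replicate 2, and the groups overlapped (-0.34, adjusted p = 0.493). KIT, the stem cell factor receptor on which mast cells depend, was at 4.43, 4.4 and 3.17 against 2.78, 3.54 and 3.94, with overlapping groups (-0.18, adjusted p = 0.561). KIT is also carried by the pacemaker cells of the gut muscle, whose chloride channel gene ANO1 was at 1.94, 5.75 and 0.436 against 2.24, 3.2 and 3.7, and the part of those cells in the KIT level was not tested.

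Histamine and prostaglandin enzymes of mast cells were below the level needed for a test. HDC, which makes histamine, was at 0.478, 0.448 and 0.51 in Control against 0.203, 0.643 and 0.407 in SMP. HPGDS, which makes prostaglandin D2, had 8, 3 and 2 reads in Control against 7, 3 and 0 in SMP, and POU2F3, the transcription factor of tuft cells, which also carry HPGDS, was at 0.0316 to 0.129 FPKM. The 0 HPGDS reads in SMP replicate 3 allow up to 0.209 FPKM. In the fit with no filter their log2 differences were -0.07 for HDC and -0.14 for HPGDS (adjusted p = 0.795 and 0.727). Of 20 further mast cell genes, 10 were tested and 0 passed (median log2 difference 0.08), and 6 of the 10 had a difference above 0. ALOX5AP, which serves leukotriene synthesis, was at 5.59, 6.11 and 5.15 against 2.61, 3.62 and 3.41 (adjusted p = 0.0517). It was also listed as a tuft cell marker, and the part of each cell type in its level was not tested. RAB27B, which serves granule release, was at 9.83, 4.93 and 8.55 against 10.1, 10.3 and 14.4 (adjusted p = 0.237).

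**Figure D4:**
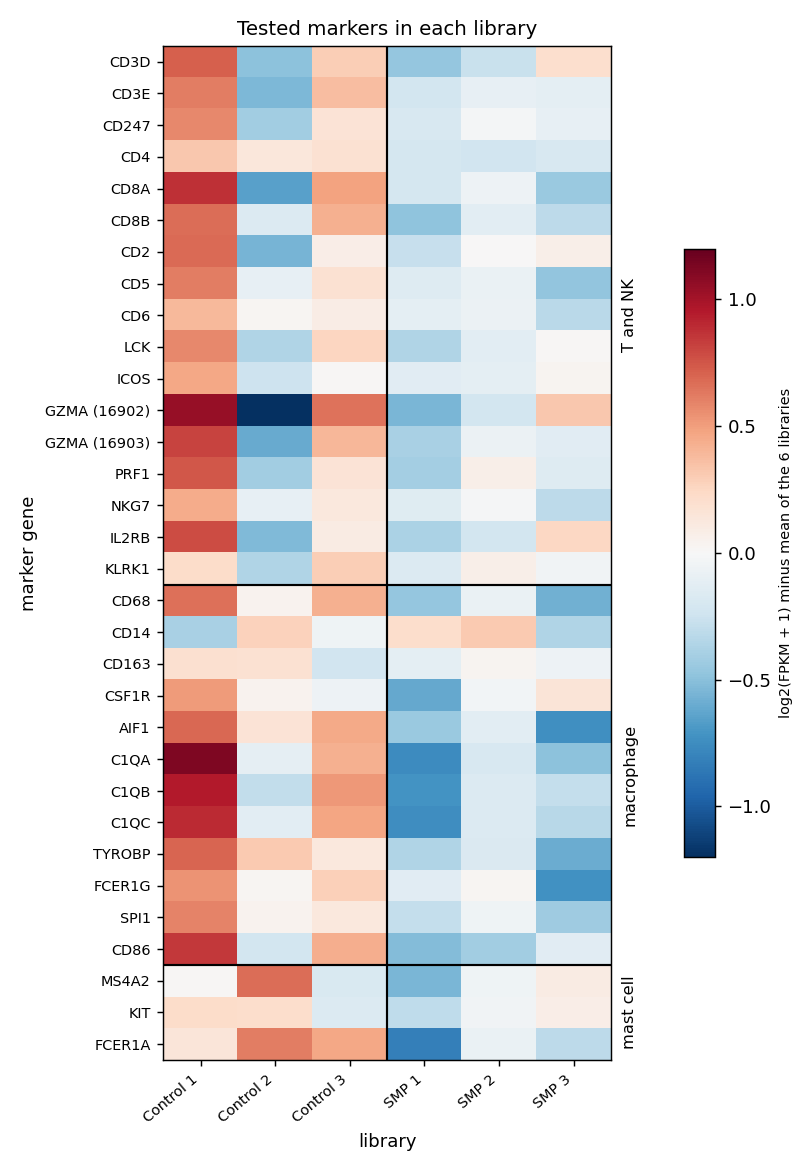
Level of each tested marker in each library, as log2(FPKM + 1) minus its mean over the 6 libraries (red, above the mean; blue, below; scale bar in log2 units), with T and NK, macrophage and mast cell rows separated by lines and Control and SMP columns by a vertical line. Control replicate 1 is red in nearly all T, NK and macrophage rows, Control replicate 2 is blue in most T and NK rows and red in the mast cell rows, and SMP replicate 1 is blue in all but CD14.

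Within a library the marker sets were compared by their mean log2 level over tested rows. The T and NK mean was 3.79, 2.78 and 3.42 in Control replicates 1 to 3 against 2.89, 3.08 and 3.07 in SMP replicates 1 to 3. The macrophage mean was 4.71, 4.13 and 4.35 against 3.69, 4.01 and 3.72, so every SMP library was below every Control library in this set and not in the T and NK set. The mast cell mean was 1.88, 2.26 and 1.79 against 1.2, 1.70 and 1.71. The T and NK mean minus the macrophage mean was -0.92, -1.35 and -0.92 in Control against -0.80, -0.93 and -0.65 in SMP, lowest in Control replicate 2 and highest in SMP replicate 3, and the groups overlapped. The T and NK mean minus the mast cell mean was 1.91, 0.53 and 1.63 in Control against 1.69, 1.38 and 1.36 in SMP, with Control replicate 2 again lowest. These means describe the libraries and were not tested.

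The sets were also read against general leukocyte genes. PTPRC, the CD45 phosphatase of all leukocytes, was at 13.8, 5.33 and 10.1 FPKM in Control against 4.82, 6.13 and 9.09 in SMP (adjusted p = 0.471). Of 20 general leukocyte genes 18 were tested and 0 passed (median log2 difference -0.45), and 17 of the 18 had a lower mean in SMP. Those with the smallest p were RAC2, a small GTPase of blood cells, at 58, 42.1 and 57.4 against 28.3, 30.9 and 35.8 (adjusted p = 0.0683), and CD37, a tetraspanin, at 9.89, 6.66 and 9.76 against 4.6, 5.69 and 4.89 (adjusted p = 0.0751). In 7 of the 18 general leukocyte genes every SMP library was below every Control library, and in 1 above. The shares over all genes tested were 11.5% and 21.1%. The T and NK mean minus the mean of these genes was -0.61, -0.90 and -0.66 in Control against -0.57, -0.60 and -0.76 in SMP. The macrophage mean minus it was 0.30, 0.45 and 0.26 against 0.24, 0.34 and -0.11, where SMP replicate 3 alone was below 0. In both differences the groups overlapped.

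**Figure D5:**
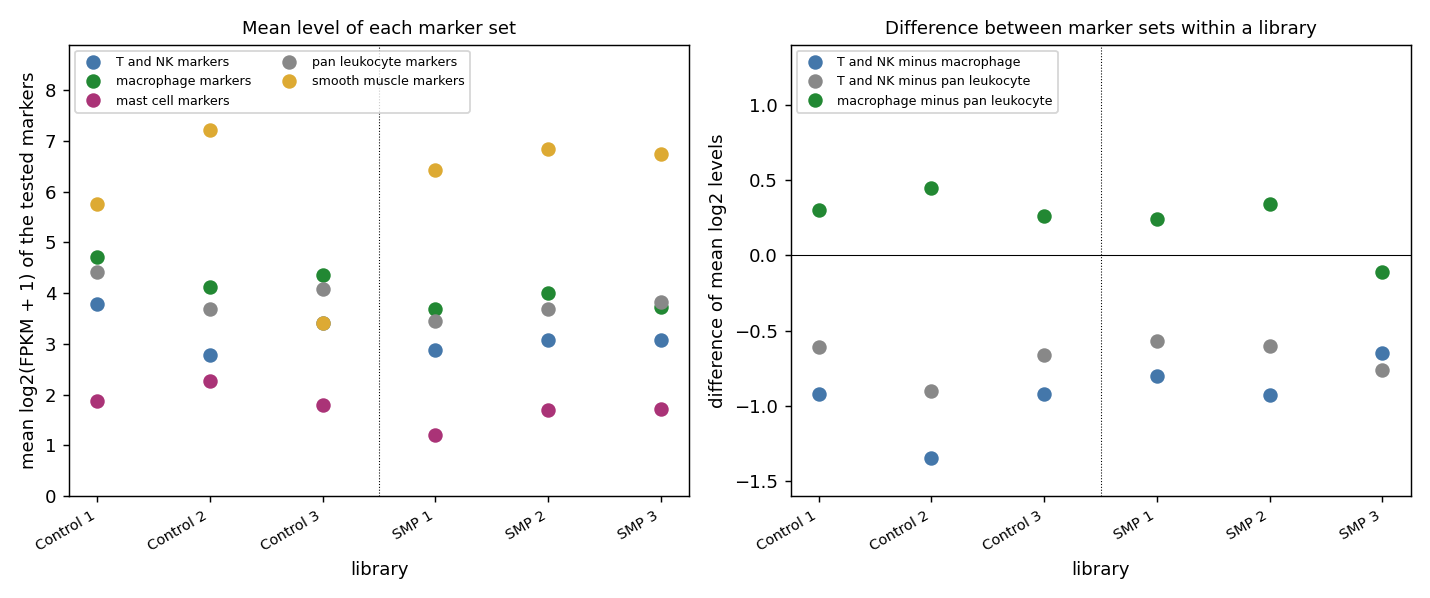
Left, mean log2(FPKM + 1) of the tested markers of each set in each library; right, differences between set means within a library, in log2 units, with a line at 0. Macrophage means in SMP (3.69 to 4.01) lie below those in Control (4.13 to 4.71), T and NK means overlap, and smooth muscle means run from 3.42 in Control replicate 3 to 7.22 in Control replicate 2.

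Ratios of FPKM between markers within a library were computed for 27 pairs chosen with these data known, and are given as descriptions. CD8A over CD4 was 4.71, 1.64 and 4.01 in Control against 3.53, 4.08 and 2.82 in SMP, and Control replicate 2 was the library with the lowest ratio. CD8A over CD3E was 0.572, 0.395 and 0.506 against 0.451, 0.467 and 0.342, and CD8B over CD3E was 0.249, 0.279 and 0.241 against 0.157, 0.207 and 0.175. The latter was lower in every SMP library than in any Control library, while the former overlapped. GZMA (both identifiers summed) over CD3E was 13, 8.06 and 11.7 against 8.79, 10.1 and 12.7, an overlap across nearly the whole range. Between cell types, CD3E over CD68 was 0.969, 0.641 and 0.958 in Control against 1.21, 0.985 and 1.41 in SMP, and C1QC over CD3E was 12.7, 14.8 and 11.4 against 7.53, 10.3 and 9.33. In each of these the SMP libraries lay on 1 side of the Control libraries. Most of the 27 pairs overlapped between the groups, and no share over other pairs of genes was computed to set beside those that did not. AIF1 over CD68 was 0.842, 0.896 and 0.836 against 0.827, 0.789 and 0.714, apart only by the narrow margin between Control replicate 3 and SMP replicate 1. TYROBP over CD68 was 2.79, 3.34 and 2.2 against 3.04, 2.6 and 2.78, with overlap.

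Further genes of the same cell types, listed with earlier results of these data known, were read beside the markers. Of 27 genes of T cell receptor signalling 18 were tested and 0 passed (median log2 difference -0.22). SIT1, a regulatory adaptor, was at 11.8, 8.17 and 9.93 in Control against 6.28, 6.88 and 3.1 in SMP, without overlap (adjusted p = 0.122). In 2 of these 18 genes every SMP library was below every Control library, beside 11.5% of all genes. Of 26 genes of T cell lineage and homing 18 were tested and 0 passed (median -0.18). In it MAF, a transcription factor, was at 69, 42.9 and 67.9 against 32.6, 37.3 and 46, and SMP replicate 3 was above Control replicate 2 (adjusted p = 0.164).

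Of 26 further genes of cytotoxic and NK cells, 13 were tested and 0 passed, with a median log2 difference of -0.54 and 13 of the 13 below 0. Of those under 1 FPKM and not tested, KLRD1, the receptor chain CD94, had 3, 3 and 3 reads in Control against 9, 16 and 13 in SMP (chosen after its values were seen). Every SMP library was above every Control library in KLRD1, which held for 21.1% of all genes tested. GNLY, the granule protein granulysin, was at 70.0, 76 and 68.7 FPKM in Control against 40.2, 46.6 and 19 in SMP. Its Control libraries were close together, replicate 2 included, and above all SMP libraries (-1.09, SE 0.32, adjusted p = 0.0913). KLRB1, the receptor CD161, was at 1.88, 1.94 and 1.9 against 1.65, 0.525 and 0.808, also without overlap (adjusted p = 0.153). In 6 of the 13 tested genes every SMP library was below every Control library, beside 11.5% of all genes.

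Of 36 further macrophage and monocyte genes 16 were tested and 0 passed (median -0.35). Of the 16, 14 had a log2 difference below 0 and 2 above it. The 2 were CD209 (0.73, adjusted p = 0.524) and LYVE1 (0.17, adjusted p = 0.84), both highest in Control replicate 2. HMOX1, which degrades haem, was at 6.71, 6.04 and 7.88 in Control against 3.46, 4.51 and 3.9 in SMP, without overlap (-0.67, SE 0.15, adjusted p = 0.0527). Of 19 complement and Fc receptor partners 13 were tested and 0 passed (median -0.37). CD40, a receptor of antigen-presenting cells, was at 9.49, 6.08 and 7.25 against 3.97, 4.59 and 4.36 and BTK, a kinase of B cells and myeloid cells, at 2.91, 1.52 and 1.88 against 0.95, 0.892 and 1.19 (adjusted p = 0.0673 and 0.112). In HMOX1, CD40 and BTK, which were taken for their small p, the SMP libraries lay below all Control libraries. That held for 5 of the 16 tested macrophage and monocyte genes and 5 of the 13 tested partners, beside 11.5% of all genes.

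Markers of other leukocytes were set beside these. B and plasma cell markers held calls, with 4 lower and 1 higher of 8 tested, beside 2.1% lower and 3.5% higher of all genes. Their median log2 difference was -1.32, and their summed level was 235 to 328 FPKM in Control and 61.2 to 105 in SMP. The 4 were the plasma cell genes MZB1, TNFRSF17 and JCHAIN and the B cell coactivator POU2AF1, and the 1 was SPIB, a transcription factor, at 12.8, 13.1 and 13.3 in Control against 20.5, 19.7 and 19 in SMP (adjusted p = 0.0469). POU2AF1 fell from 4.17, 3.83 and 4.29 in Control to 1.19, 1.07 and 1.1 in SMP (adjusted p = 0.00668), with Control replicate 2 far above every SMP library. MZB1 was at 68.8, 97.5 and 85.2 against 17.8, 19.4 and 13.1, TNFRSF17 at 12.6, 8.65 and 12.6 against 1.43, 2.46 and 1.89 and JCHAIN at 218, 97.4 and 170.3 against 37.5, 51.8 and 20.9 (adjusted p = 0.00504, 0.00668 and 0.0343). Of 11 dendritic cell genes 5 were tested and 0 passed, with FSCN1, an actin-bundling protein, at 15.5, 17.3 and 14.9 against 9.16, 10.8 and 13.1 and BATF3, a transcription factor, at 8.05, 8.91 and 7.18 against 5.44, 6.96 and 3.19 (adjusted p = 0.112 and 0.184). Of 12 granulocyte genes 6 had an identifier and 0 were tested. Their summed level was 1.75 to 3.87 FPKM in Control and 0.613 to 0.871 in SMP, and S100A8 and MPO were each listed at 0 in 5 of the 6 libraries. The erythroid gene HBB was at 17.7, 16.5 and 11 in Control against 1.93, 3.99 and 17 in SMP (adjusted p = 0.242).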

How the data were processed

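The authors deposited 1 FPKM value per gene and library for 21911 pig genes. A NEBNext Ultra kit was used, per the labels' protocols. HISAT2 2.0.5, StringTie, DESeq2 1.16.1 and the mouse build mm10 are named, without roles, in the submitters' processing notes. Since the identifiers belong to the pig, the build remains unsettled and coordinates are left out. Strand and shared reads are not described in those sources. Whole reads behind the deposited FPKM values were recovered for 21911 genes (100%, relative tolerance 1e-08), so depth is known. Floors (3 reads) cover counting error only, and 95% intervals are those of limma. Values were tested as log2(FPKM + 1) with limma 3.58.1 in R 4.3.3 (treatment only, trend, mean of at least 1 FPKM, Benjamini-Hochberg adjustment over 11471 genes at 0.05). The recovery and the test were checked on simulated data. All 43 markers are named. From each other list the rule took up to 4 genes that passed, or else the 2 with the smallest p, and these are left out for tissue lists on which no marker result turns. Some genes that the rule took are not reported here. The members and lists were chosen with earlier results of these data known. Neighbouring genes were read from RefSeq by symbol.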

Additional observations from a re-analysis of the deposited data

How the results depend on the processing

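Alternatives were median-ratio scaling, a pseudocount of 0.1, no filter, voom on recovered reads, the replicate number as a block, each library left out, and Control replicate 2 and SMP replicate 3 left out together. No filter gave 158 genes higher and 100 lower, median-ratio scaling 422 lower with 3 markers lower, and leaving out both libraries 1808 and 1235 with 13 markers lower. With each library left out in turn, 20 to 779 genes were higher, 20 to 526 lower and 0 to 9 markers lower. The median log2 difference ranged from -0.57 (without Control replicate 2) to -0.08 (without Control replicate 1) for T and NK markers. For macrophage markers it ranged from -0.85 (without Control replicate 2) to -0.48 (without Control replicate 1), and for mast cell markers from -0.51 (without Control replicate 3) to -0.15 (without SMP replicate 1). Voom gave -0.66 for mast cell markers. In the same fits the sign turned for CD247 (-0.475 to 0.021), CD2 (-0.45 to 0.17), ICOS (-0.32 to 0.04), GZMA ENSSSCG00000016902 (-0.997 to 0.162), IL2RB (-0.56 to 0.10), KLRK1 (-0.304 to 0.026) and CD14 (-0.059 to 0.317). The cause of these shifts was not tested.

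With the replicate number as a block, 115 genes were higher and 121 lower and 0 markers were called. Same-numbered libraries deviated together with correlations of -0.31, 0.32 and -0.04 for numbers 1, 2 and 3, so the numbers were not taken to pair the samples, and not every library correlated best with its own number. CTLA4, HPGDS and FOXP3 rest on at most 28 reads in any library, which limits the precision of their values.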
